A study of Mus musculus with 2 samples.

Results

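The genes described here are 6 ligand genes of the stem cell niche, Kitl, Cxcl12, Thpo, Angpt1, Tgfb1 and Csf1, out of 32285 genes listed in each of the 2 count tables. They were chosen as a list of secreted factors by name and not by a cut on any measured value, but with earlier results of these data known. The question was which cell types of the sorted fetal liver contained their transcripts, by level and by number of positive cells, and how those values compared between IκBα KO and WT embryos.

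Haematopoietic stem cells multiply in the fetal liver among hepatoblasts, sinusoidal endothelium, perivascular stromal cells, macrophages and megakaryocytes, and receive short-range signals from these neighbours. Kitl (stem cell factor) engages the receptor tyrosine kinase Kit, Cxcl12 holds cells in place through Cxcr4, and Thpo (thrombopoietin) is the hormone that drives megakaryocyte formation and also maintains stem cells. Angpt1 (angiopoietin 1) is the activating ligand of Tek (Tie2), Tgfb1 encodes a latent cytokine that restrains cycling once it is released, and Csf1 sustains macrophages through Csf1r.

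Droplet-based libraries (10x Genomics, 3′ v3 chemistry) came from livers of CD1 embryos at E14.5, with 2 WT embryos pooled for 1 library and 3 KO embryos pooled for the other. KO embryos lacked IκBα (gene Nfkbia), the inhibitor that keeps NF-κB in the cytoplasm, in every tissue, so that blood cells and their neighbours were mutant alike. Cells were depleted of mature lineages and sorted as LSK (lineage-negative, SCA1-positive, cKIT-positive), although the titles of the samples speak of LT-HSCs. Hepatocytes, endothelium, macrophages and megakaryocytes in these libraries were therefore cells that had passed a sort meant to leave them out, and their numbers describe that sort and not the liver.

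After filtering, 3458 WT and 4417 KO cells remained, with a median of 28065 and 19560 UMIs (unique molecular identifiers, each marking an original RNA molecule) per cell. The libraries shared 7 barcodes, 6 of them kept in both. Nfkbia had 1478 UMIs in the WT library and 7 in the KO library, the direction the labels give. The pools also differed in sex, since Xist was detected without any Y-linked UMI in 95.9% of the cells from WT and in 69.4% of those from KO.

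Cell types were assigned to single cells by marker gates, each a list of 6 or 8 marker genes with a minimum share of the UMIs of the cell. No member gene was a gate marker. The hepatocyte gate (Alb, Afp, Ttr and others) held 30 WT and 64 KO cells, the endothelial gate (Stab2, Lyve1, Kdr and others) 60 and 77, the macrophage gate (C1qa, Cd5l, Marco and others) 51 and 103, the megakaryocyte gate (Pf4, Gp9, Tubb1 and others) 21 and 49, and the stem gate (Hlf, Mecom, Procr and others) 402 and 352. Across these gates all 5 check markers that the gate did not use were over 5-fold higher than in the other cells, with folds of 29.5 to 357 in the hepatocyte gate and 5.11 to 7.83 in the stem gate. The stem gate took 11.6% of WT and 7.97% of KO cells, the erythroid gate 32.1% and 36.2% (where 2 of 5 check markers were over 5-fold higher), and 44.3% and 41.8% of cells passed no gate. Levels are given as CPM, the UMIs of a gene per 1000000 UMIs of the cells in a gate, with an exact 95% Poisson interval. Since each genotype was a single library, genotypes could not be tested against each other, and intervals here cover counting error only, not the spread between embryos.

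The members differed in where their start sites lie and in the sequence before them. On GRCm38 (GENCODE vM21), Kitl lies at chr10:100015630-100100416 (plus strand), Cxcl12 at chr6:117168535-117181367 (plus), Thpo at chr16:20724454-20734511 (minus), Angpt1 at chr15:42424723-42676977 (minus), Tgfb1 at chr7:25687002-25705077 (plus) and Csf1 at chr3:107741048-107760469 (minus). All 6 are protein-coding, and of these only Thpo (by Chrd) and Angpt1 (by Gm17473) are overlapped by another annotated gene, in both cases on the opposite strand. Promoters of 5 members were found in the RefSeq table (GRCm38.p6), 250 bases before to 50 after a start. The 4 lines below are shown for Kitl, Cxcl12 and Thpo, whose highest level was in the hepatocyte gate, and for Csf1, which was also detected there. They lie at chr10:100015571-100015870 (Kitl, plus), chr6:117168285-117168584 (Cxcl12, plus), chr16:20734462-20734761 (Thpo, minus, 1 of 2 starts) and chr3:107760420-107760719 (Csf1, minus). Capitals mark matches to the motifs searched.
Kitl: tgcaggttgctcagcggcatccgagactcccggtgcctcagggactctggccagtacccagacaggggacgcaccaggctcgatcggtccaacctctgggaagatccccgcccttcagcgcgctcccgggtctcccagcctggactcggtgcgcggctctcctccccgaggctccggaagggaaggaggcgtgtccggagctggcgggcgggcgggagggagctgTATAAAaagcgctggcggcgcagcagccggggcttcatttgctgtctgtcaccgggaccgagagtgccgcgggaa
Cxcl12: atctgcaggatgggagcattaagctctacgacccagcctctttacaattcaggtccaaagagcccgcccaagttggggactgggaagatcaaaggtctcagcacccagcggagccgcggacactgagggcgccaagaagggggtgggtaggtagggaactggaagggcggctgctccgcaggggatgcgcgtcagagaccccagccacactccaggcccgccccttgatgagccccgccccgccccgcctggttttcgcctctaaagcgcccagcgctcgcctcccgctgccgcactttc
Thpo: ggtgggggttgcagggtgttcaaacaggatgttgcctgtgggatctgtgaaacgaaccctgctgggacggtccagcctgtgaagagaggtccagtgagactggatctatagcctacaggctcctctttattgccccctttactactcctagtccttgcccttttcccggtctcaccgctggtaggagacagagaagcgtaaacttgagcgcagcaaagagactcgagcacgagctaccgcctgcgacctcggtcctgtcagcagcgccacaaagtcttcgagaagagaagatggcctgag
Csf1: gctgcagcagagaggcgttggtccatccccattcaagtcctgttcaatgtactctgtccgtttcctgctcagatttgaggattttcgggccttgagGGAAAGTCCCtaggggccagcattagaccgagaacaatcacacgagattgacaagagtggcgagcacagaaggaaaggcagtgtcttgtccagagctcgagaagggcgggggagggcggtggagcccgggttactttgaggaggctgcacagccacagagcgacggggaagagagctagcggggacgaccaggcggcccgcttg
Both strands were searched for the NF-kappaB site (searched under its usual consensus), the HNF1 site GTTAAT, the GATA site AGATAA and the TATA box TATAAA. Kitl held a TATA box 25 bases before its RefSeq start, a match found in 13.6% of 32544 promoters. The GENCODE start of Kitl, at chr10:100015630, lies before this match, so these annotations place the start differently. Csf1 held an NF-kappaB match 154 bases before its start, on the other strand, as did 4.53% of promoters. The promoters of Cxcl12, Thpo (both starts) and Tgfb1 held none of these letters, and HNF1 sites and GATA sites occurred in 7.13% and 11.2% of all promoters. GC content ran from 55.7% in the second Thpo promoter to 77% in Tgfb1, against a median of 53%. That a window lacks these letters says nothing more about the factor.

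In these sorted cells, Kitl transcripts came mainly from hepatocyte-gated cells. In that gate Kitl reached 52.6 CPM (42.1 to 65.0) from 86 UMIs in the WT library and 58.8 CPM (49.0 to 70.0) from 126 UMIs in the KO library. The endothelial gate was next, with 21.4 CPM (24 UMIs) in WT and 11.8 CPM (15 UMIs) in KO, and the macrophage gate followed with 3.64 CPM (7 UMIs) and 5.11 CPM (12 UMIs). Each step of this order held in both libraries, since the interval of each ratio between neighbours left out 1, although the KO endothelial to macrophage ratio of 2.32 had a lower bound of only 1.01. Below them the stem gate had 2 and 1 UMIs and the megakaryocyte gate 0 and 1, and neighbours there could not be set apart. The mesenchymal gate, described below with Cxcl12, had 0 Kitl UMIs in 1 WT cell and 1 UMI in 2 KO cells. Its intervals reached 334 and 147 CPM, past the hepatocyte level, and with so few cells it was not ranked. The hepatocyte level was 191-fold (WT) and 311-fold (KO) that of the stem gate, with lower bounds of 51.4-fold and 54.9-fold from so few stem UMIs.

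Positive cells gave the same ranking. Kitl was detected in 25 of 30 WT and 43 of 64 KO hepatocyte-gated cells (83.3% and 67.2%), with a median of 2 UMIs per cell in both libraries and at most 13 and 9. In the endothelial gate 16 of 60 and 13 of 77 cells were positive (26.7% and 16.9%), with at most 4 and 2 UMIs in a cell. Erythroid-gated cells, which should lack Kitl, were positive in 0.270% and 0.313% of cells at a median depth of 30293 and 20169.5 UMIs, so the shares in the 3 leading gates were far above this background.

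Depth differed between gates and libraries, with a median of 46355.5 UMIs in WT and 28903.5 in KO hepatocyte-gated cells. When every cell was thinned to 8500 UMIs, 32.1% of WT and 38.3% of KO hepatocyte-gated cells still had a Kitl UMI. The order of the 2 libraries turned with thinning, so the higher unthinned WT share cannot be read as more Kitl-positive hepatocytes in WT. Endothelial shares came to 10.2% and 11.1% after thinning, and macrophage shares to 6.52% and 6.59%. Thinning left out 129 WT and 379 KO cells that were shallower.

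**Figure D1:**
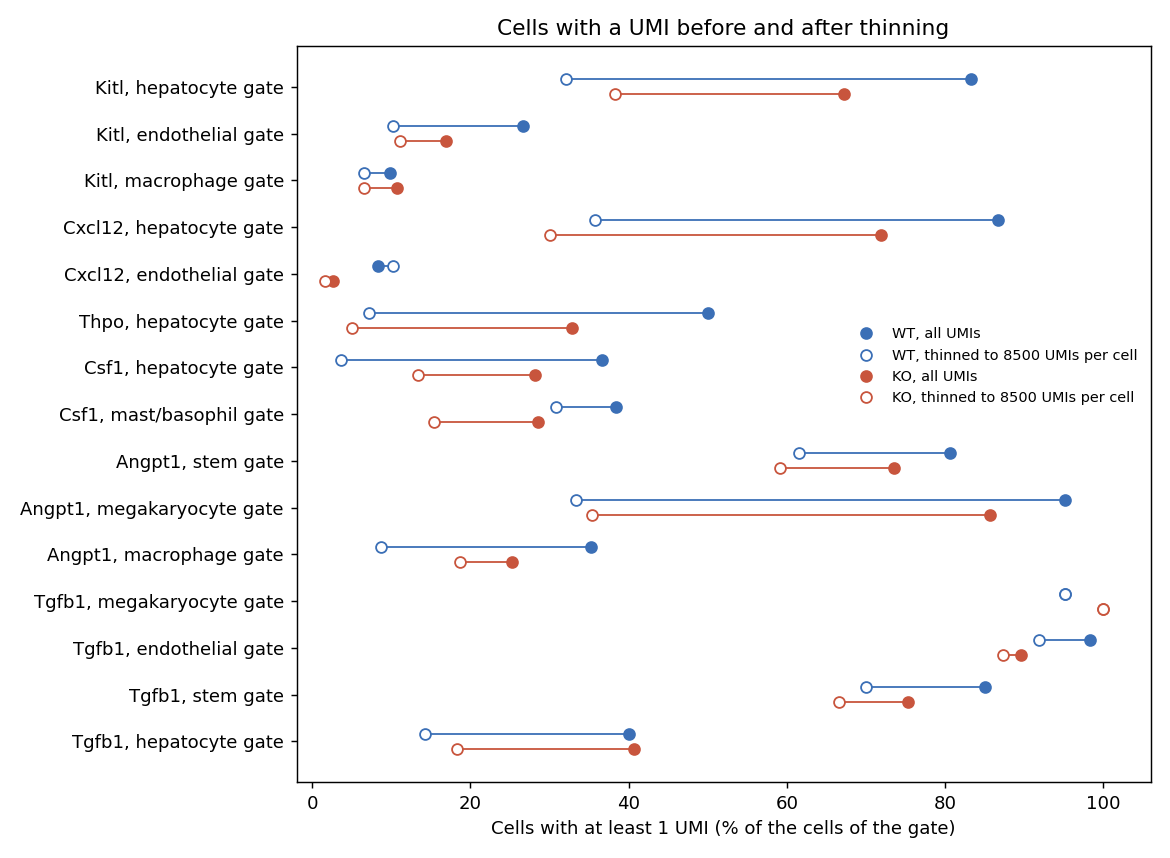
Percent of cells of a gate with at least 1 UMI of the named gene, in the WT (blue) and KO (red) library, from all UMIs (filled) and after each cell was thinned to 8500 UMIs (open, with shallower cells left out). Kitl in the hepatocyte gate goes from 83.3% and 67.2% to 32.1% and 38.3%, whereas Tgfb1 in the megakaryocyte gate stays at 95.2% and 100%.

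Stray hepatocyte RNA was measured beside the lower Kitl levels. The 8 hepatocyte gate markers made up 4.0 and 2.26 of 10000 UMIs in the endothelial gate, against 645 and 703 in the hepatocyte gate. At the ratio of Kitl to these markers in hepatocyte-gated cells, this would bring 0.326 and 0.189 CPM of Kitl, against the measured 21.4 and 11.8. In the macrophage gate the same figure was 0.0724 and 0.0933 CPM, against 3.64 and 5.11. Kitl-positive WT endothelial cells carried fewer hepatocyte marker UMIs (1.28 per 10000) than Kitl-negative ones (5.28), and in KO the values were 2.68 and 2.12. Of these positive endothelial cells, 3 of 16 and 3 of 13 were called doublets. In the macrophage gate the 5 Kitl-positive WT cells had more hepatocyte markers than the negative ones (3.41 against 0.435 per 10000), unlike the 11 positive KO cells (0.839 against 1.15). The part of hepatocyte RNA in the WT macrophage value was not tested beyond this.

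Cxcl12 was confined more closely to the hepatocyte gate among the gates with 10 or more cells. Its level there was 61.2 CPM (49.8 to 74.4) from 100 WT UMIs and 48.5 CPM (39.6 to 58.8) from 104 KO UMIs. The endothelial gate had 6.25 CPM (7 UMIs) and 3.16 CPM (4 UMIs), which was 9.79-fold (4.58 to 25.0) and 15.4-fold (5.82 to 57.4) lower. The macrophage gate had 1 and 0 UMIs, and the megakaryocyte, lymphoid-primed, neutrophil-primed, monocyte/dendritic and mast/basophil gates had none in either library. Against the KO stem gate, also at 0 and taken at a floor of 3 UMIs, hepatocyte Cxcl12 was 85.7-fold higher, with a lower bound of 68.5-fold. In the hepatocyte gate 26 of 30 WT and 46 of 64 KO cells were positive (86.7% and 71.9%, thinned 35.7% and 30.0%), against 0.450% and 0.125% of erythroid-gated cells.

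Cxcl12 was also detected in the mesenchymal and endothelial gates. The mesenchymal gate (Col1a1, Dcn, Pdgfra and others) held 1 WT cell with 4 Cxcl12 UMIs and 2 KO cells with 1 each. As a level this was 362 CPM (WT, interval 98.6 to 926) and 52.8 CPM (KO, interval 6.39 to 191). Hepatocyte-gated cells stood at 61.2 (WT, interval 49.8 to 74.4) and 48.5 (KO, interval 39.6 to 58.8). Hepatocyte Cxcl12 was therefore not the highest per UMI once this gate is counted, but so few mesenchymal cells passed the sort that the gate was not ranked. Of the endothelial-gated cells, 5 of 60 WT and 2 of 77 KO cells had Cxcl12, and in them the mesenchymal marker list stood at 2.71 and 2.11 per 10000 UMIs against 0.144 and 0.0649 in the Cxcl12-negative endothelial cells. Their hepatocyte markers were 6.27 and 1.81 against 3.82 and 2.27 per 10000, and none of the 7 was called a doublet. The part of stromal RNA in the endothelial Cxcl12 value was not tested.

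Thpo, the hormone of platelet production, was almost wholly a hepatocyte transcript in these cells. It had 19 UMIs in 15 of 30 WT hepatocyte-gated cells and 29 UMIs in 21 of 64 KO cells, or 11.6 CPM (7.00 to 18.2) and 13.5 CPM (9.06 to 19.4). No cell held more than 2 (WT) or 3 (KO) UMIs. The endothelial, macrophage, megakaryocyte, stem and ungated cells had 0 UMIs in both libraries, the erythroid gate had 1 UMI in each, and the WT cells that passed several gates had 3. With the stem gate taken at a floor of 3 UMIs, hepatocyte Thpo was 28.2-fold (WT) and 23.9-fold (KO) the stem level. The lower bounds of the intervals were 20.8-fold and 18.2-fold. A count of 0 in 402 and 352 stem-gated cells, taken as at most 3 cells, allows a share of up to 0.746% and 0.852% positive. Against the smaller endothelial gate the values at the floor were 4.34-fold and 5.71-fold, with lower bounds of 3.20-fold and 4.35-fold. Thinned shares came to 7.14% and 5.0% of 28 and 60 cells.

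Detection of Kitl, Cxcl12, Thpo and Csf1 overlapped in part among hepatocyte-gated cells. All 4 genes were detected in 4 of 30 WT and 4 of 64 KO cells, and Thpo together with Csf1 in 4 and 8 cells. In WT, 19 of 30 cells had at least 3 of the 4 genes and 1 cell had none, and in KO 19 of 64 cells had at least 3 and 4 cells had none. Kitl and Cxcl12 were detected together in 23 of 30 WT and 31 of 64 KO cells. KO hepatocyte-gated cells were shallower than WT ones, and the part of depth in these counts was not tested.

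Csf1 had no such single source. The mast/basophil gate (Ms4a2, Mcpt8, Cpa3 and others) led at 42.8 CPM (24.9 to 68.5) in the WT library and 33.0 CPM (15.8 to 60.7) in the KO library, but from only 17 and 10 UMIs in 13 and 14 cells. Single cells held 9 of the 17 and 5 of the 10, 52.9% and 50% of each value. The hepatocyte gate followed with 8.57 CPM (14 UMIs, 11 of 30 cells) and 11.2 CPM (24 UMIs, 18 of 64 cells), and here no cell had more than 2 UMIs. The endothelial gate had 5.36 and 4.74 CPM from 6 UMIs each, which could not be set apart from the hepatocyte gate. The macrophage gate, whose cells depend on Csf1, had 3 UMIs in each library (1.56 and 1.28 CPM). Cells that passed no gate held 33 and 28 Csf1 UMIs, 34.4% and 25.9% of the total, at 0.674 and 0.678 CPM. With doubled gate thresholds, gates on thinned cells, clusters or Xist-positive cells alone, fewer than 10 mast/basophil-gated cells were left in a library, or no such cluster was found, so that this gate was not ranked and the hepatocyte gate came first. Where its level was given, mast/basophil Csf1 was 26.7 CPM or more in WT and 30.1 CPM or more in KO, against at most 9.39 and 12.8 CPM in the hepatocyte gate.

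**Figure D2:**
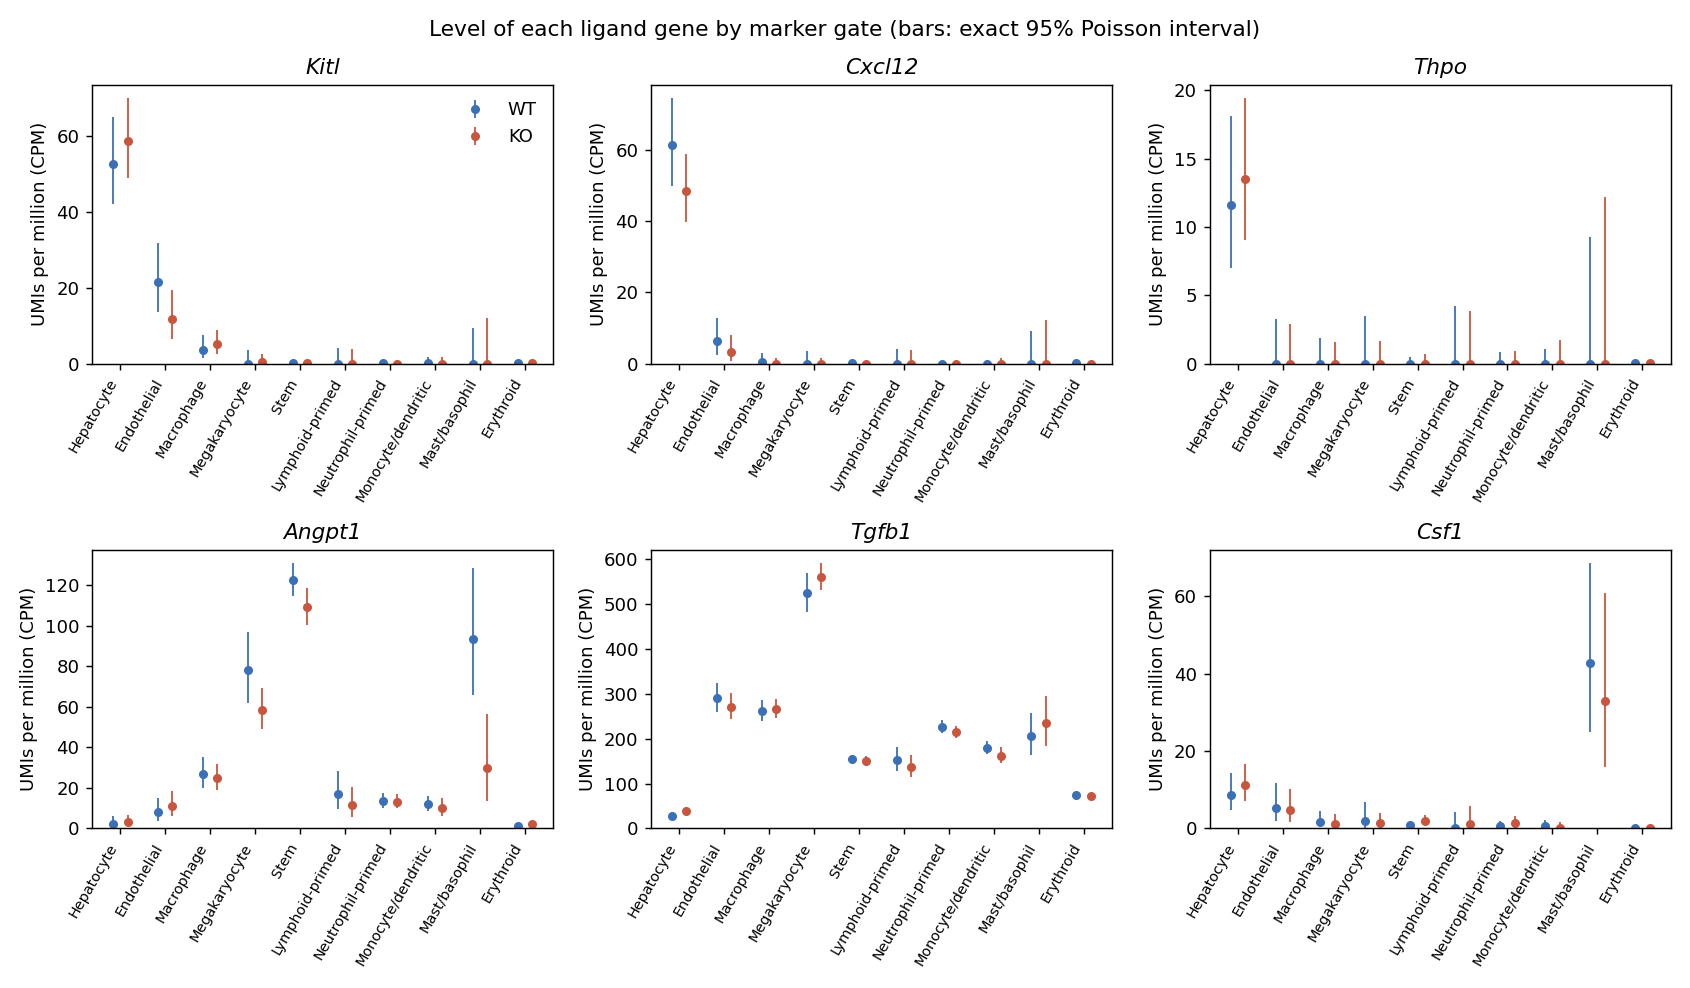
CPM of each ligand gene (vertical axes, linear, each with its own range) in 10 marker gates, in the WT (blue) and KO (red) library, with exact 95% Poisson intervals. Kitl, Cxcl12 and Thpo peak in the hepatocyte gate, Angpt1 in the stem gate (123 and 109 CPM), Tgfb1 in the megakaryocyte gate (524 and 560 CPM) and Csf1 in the mast/basophil gate.

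Among the ranked gates, Angpt1 was highest in the stem gate and lowest in the erythroid gate (1.26 and 2.08 CPM) in both libraries. The mesenchymal gate had 0 Angpt1 UMIs in 1 WT cell and 0 in 2 KO cells. Its intervals reached 334 and 97.4 CPM, so a stromal level could not be compared. The stem gate had 123 CPM (115 to 131) from 891 WT UMIs and 109 CPM (100 to 118) from 578 KO UMIs, and 324 of 402 WT and 259 of 352 KO cells were positive (80.6% and 73.6%, thinned 61.6% and 59.1%). A stem-gated cell held a median of 2 and 1 UMIs and at most 12 and 14. The megakaryocyte gate was at 78.0 CPM in the WT and 58.5 CPM in the KO library, and had 20 of 21 and 42 of 49 cells positive. The stem level was 1.57-fold and 1.87-fold that of the megakaryocyte gate, and both intervals left out 1. The mast/basophil gate stood at 93.2 CPM in WT (37 UMIs) and 29.7 CPM in KO (9 UMIs, 5 of them in 1 cell), and its place relative to the megakaryocyte gate differed between the libraries. Set against the mast/basophil gate, the stem level was 1.32-fold in WT and 3.67-fold in KO, with lower bounds of 0.947 and 1.92. The stem and mast/basophil gates were thus not set apart in WT.

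Below these the macrophage gate had 27.0 and 24.7 CPM of Angpt1, the lymphoid-primed, neutrophil-primed and monocyte/dendritic gates 9.93 to 17.1 CPM, and the endothelial gate 8.04 and 11.1 CPM. Of the Angpt1-positive endothelial cells, 4 of 5 in WT and 3 of 6 in KO were called doublets. Hepatocyte-gated cells had 2.45 and 3.27 CPM (4 and 7 UMIs) and erythroid-gated cells, the lowest, 1.26 and 2.08 CPM in 2.34% and 3.07% of cells. Angpt1-positive macrophages were deeper than negative ones (median 44691 against 33185 UMIs in WT, 32185.5 against 14756 in KO) and had more stem gate markers, 1.48 against 0.563 per 10000 UMIs in WT and 2.09 against 0.432 in KO. Of the positive macrophages, 2 of 18 and 4 of 26 were called doublets. At the ratio of Angpt1 to stem markers in the stem gate, the stem markers in the macrophage gate would bring 22.6 (WT) and 21.9 CPM (KO) of Angpt1, against the 27.0 and 24.7 CPM measured. The same reckoning gave 22.0 and 21.1 CPM in the erythroid gate, above the 1.26 and 2.08 CPM measured there. Cells that passed no gate contained 57.6% and 58.6% of all Angpt1 UMIs, at 34.5 and 33.4 CPM.

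Tgfb1 was found in every gate with 10 or more cells, with a peak in megakaryocytes. The megakaryocyte gate was at 524 CPM (481 to 570) in the WT library and 560 CPM (530 to 592) in the KO library. It had 20 of 21 and 49 of 49 cells positive, with a median of 24 and 23 UMIs per cell. The next gates were endothelial at 290 and 271 CPM and macrophage at 261 and 267 CPM, and these 2 could not be set apart. Megakaryocyte Tgfb1 was 1.81-fold and 2.07-fold the endothelial level. The mast/basophil (207 and 234 CPM) and neutrophil-primed (226 and 214 CPM) gates came next, then the monocyte/dendritic, stem (154 and 150 CPM) and lymphoid-primed gates. Erythroid cells had 75.5 and 72.4 CPM.

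Hepatocyte-gated cells had the lowest Tgfb1 level, 28.2 CPM (46 UMIs) in WT and 39.2 CPM (84 UMIs) in KO. The 12 WT and 26 KO hepatocyte-gated cells with Tgfb1 were deeper than those without (median 71652 against 37439.5 UMIs in WT, 43754 against 24183 in KO). They had 4.97 and 2.54 erythroid marker UMIs per 10000, against 0.15 and 0.871 in Tgfb1-negative hepatocyte-gated cells. All 3 WT doublet calls of this gate and 12 of 14 KO calls were in Tgfb1-positive cells. Without the called cells the direction of the KO to WT ratio turned, as given with the ratios.

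**Figure D3:**
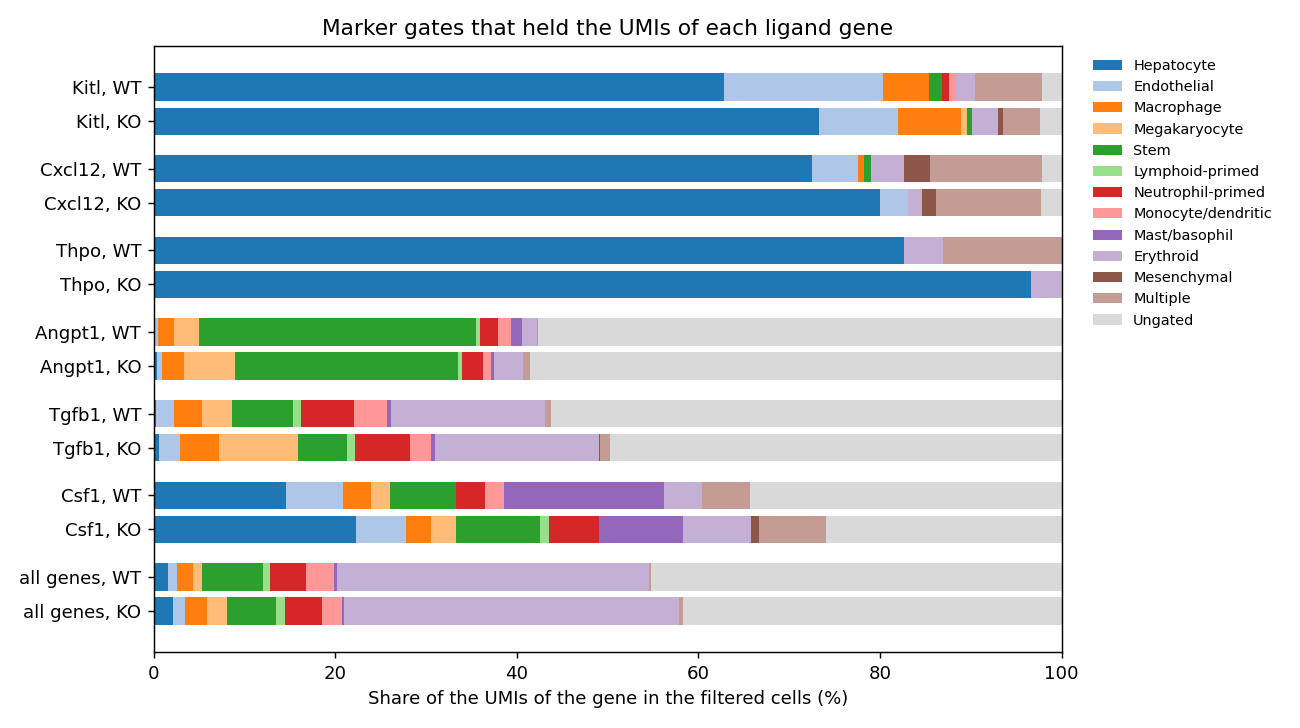
Share of the UMIs of each ligand gene, in percent of its UMIs in the filtered cells, by marker gate and library, with the share of all UMIs in the lowest pair of bars. Hepatocyte-gated cells held 62.8% and 73.3% of Kitl, 72.5% and 80.0% of Cxcl12 and 82.6% and 96.7% of Thpo, but 1.51% and 2.16% of all UMIs.

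Weighted by cell number, the sources of the members fell into separate groups. The 30 WT and 64 KO hepatocyte-gated cells, 0.868% and 1.45% of cells, contained 62.8% and 73.3% of the Kitl UMIs, 72.5% and 80.0% of the Cxcl12 UMIs and 82.6% and 96.7% of the Thpo UMIs. For Csf1 the same gate contained 14.6% and 22.2%. Cells that passed several niche gates at once (6 WT, 15 KO) held 12.3% and 11.5% of Cxcl12 and 7.30% and 4.07% of Kitl. The hepatocyte, endothelial, macrophage and megakaryocyte gates together held 5.02% and 8.95% of the Angpt1 and 8.60% and 15.8% of the Tgfb1 UMIs. KO megakaryocyte-gated cells held 8.64% of Tgfb1 UMIs against 3.33% in WT, at similar CPM, and the gate took 1.11% of KO against 0.607% of WT cells. Over all cells, Kitl was at 1.26 CPM in the WT and 1.74 CPM in the KO library, beside the lower WT share of hepatocyte-gated cells.

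Between KO and WT, member levels within the 5 main gates lay within 2-fold of each other wherever at least 20 UMIs were counted in both libraries together. The counts of members past 2-fold were 0 of 5 in the hepatocyte gate (4.2% of 9019 genes there were past 2-fold), 0 of 3 in the endothelial gate (3.83% of 8377), 0 of 2 in the macrophage gate (3.94% of 9475), 0 of 2 in the megakaryocyte gate (4.38% of 8217) and 0 of 2 in the stem gate (2.82% of 11152). With 2 to 5 members per gate, a count of 0 is near these background shares and does not set the members apart. The median log2 KO/WT of the members was 0.22 in the hepatocyte gate and -0.10 in the stem and endothelial gates, against medians of 0.042, -0.0037 and 0.036 over all genes.

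**Figure D4:**
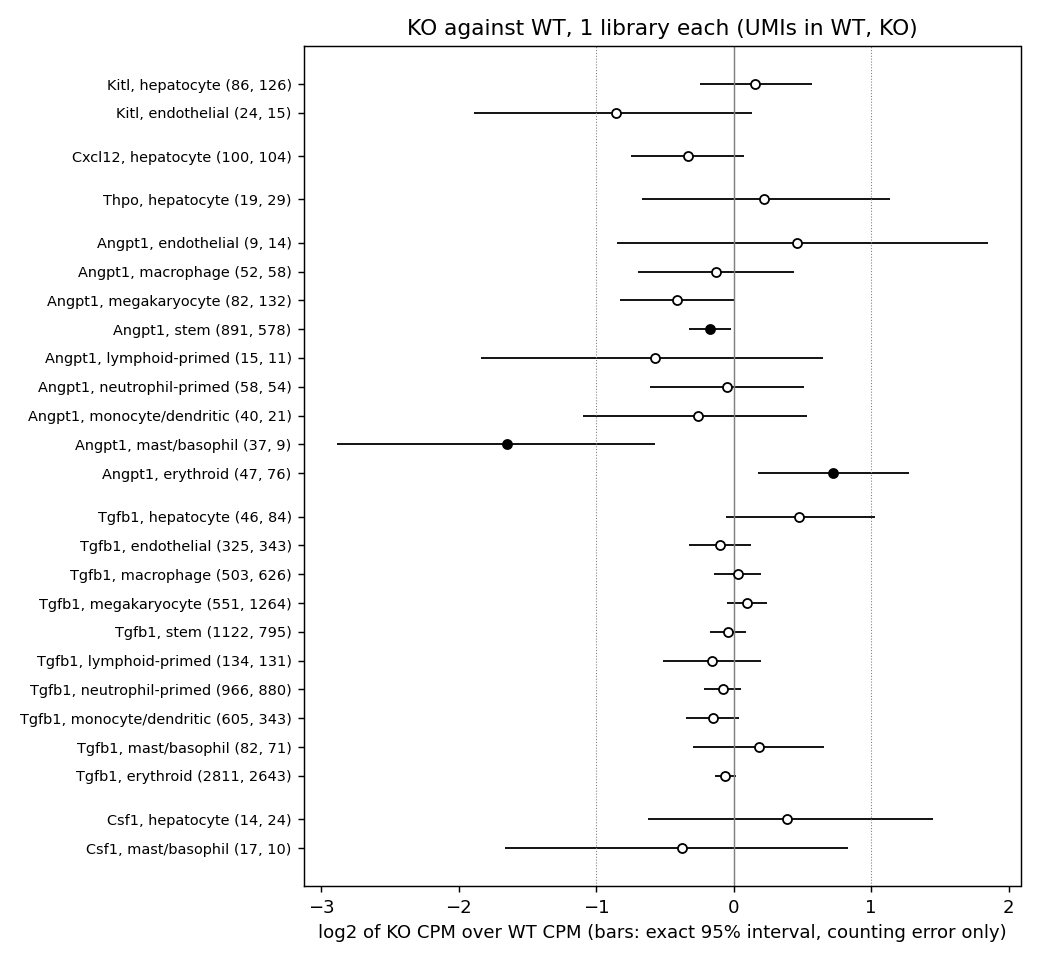
The log2 ratio of KO to WT CPM (horizontal axis) for each member and gate with at least 20 UMIs in both libraries together, with exact 95% intervals for counting error and the UMIs of each library in brackets. Filled points mark intervals that leave out 0, which are Angpt1 in the stem (-0.17), mast/basophil (-1.65) and erythroid (0.72) gates, and dotted lines mark 2-fold.

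In hepatocyte-gated cells Kitl differed by a log2 KO/WT of 0.16 (-0.25 to 0.57), Cxcl12 by -0.34 (-0.75 to 0.075), Thpo by 0.22 (-0.67 to 1.13), Csf1 by 0.39 (-0.62 to 1.45) and Tgfb1 by 0.48 (-0.059 to 1.03). None of the 5 intervals left out 0, as 10.3% of all genes in this gate did. The intervals of Kitl and Cxcl12 lay within 2-fold either way, whereas those of Thpo, Csf1 and Tgfb1 reached past 2-fold. The Tgfb1 value went to -0.38 without doublet calls and to -0.40 with clusters in place of gates.

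Endothelial Kitl had a log2 ratio of -0.85 from 24 and 15 UMIs, with an interval that included 0 (-1.89 to 0.13). Its sign was the same in all 10 alternatives, but these drew on the same libraries and add no independent evidence. After thinning, 10.2% of WT and 11.1% of KO endothelial-gated cells had a Kitl UMI. Endothelial Tgfb1 (-0.10) and Angpt1 (0.46) were also within their intervals of 0, so 0 of 3 members stood out where 10.4% of genes did. In the macrophage gate 0 of 2 (Angpt1 -0.13, Tgfb1 0.030) and in the megakaryocyte gate 0 of 2 (Angpt1 -0.41, with an upper bound of 0.00087, and Tgfb1 0.096) left out 0, against 17.6% and 12.4% of genes.

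In the stem gate the log2 ratio was -0.17 for Angpt1 (-0.32 to -0.016) and -0.041 for Tgfb1 (-0.17 to 0.091), so 1 of 2 members left out 0 where 16.7% of all genes did. The Angpt1 interval included 0 without doublet calls (-0.028), with halved thresholds (-0.14), doubled thresholds (-0.077), gates on thinned cells (-0.055) and Xist-positive cells alone (-0.14), and in each of these KO stayed below WT. Kit differed in the same gate by -0.17, and by -0.024 without doublet calls.

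Outside the main gates, Angpt1 was 29.7 CPM in KO against 93.2 CPM in WT mast/basophil-gated cells, a log2 ratio of -1.65 (-2.89 to -0.57). In this gate 9.21% of 4280 genes were past 2-fold and 12.2% had an interval that left out 0, and KO rested on 4 positive cells of 14 against 11 of 13 in WT. The ratio was -0.52 with halved thresholds and -3.66 with doubled thresholds. The make-up of the gate moved with it: mast/basophil markers stood at 42.7 (WT) and 19.6 (KO) per 10000 UMIs and neutrophil-primed markers at 9.29 and 24.7, and their part in the Angpt1 difference was not tested. Erythroid Angpt1 was higher in KO by 0.72 (0.18 to 1.28), from 47 and 76 UMIs, where 22% of 11526 genes left out 0, and without doublet calls it was 1.00 (-0.062 to 2.15). Tgfb1 in ungated cells was lower in KO by -0.11 (-0.16 to -0.069), where 23.5% of 13194 genes left out 0.

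**Figure D5:**
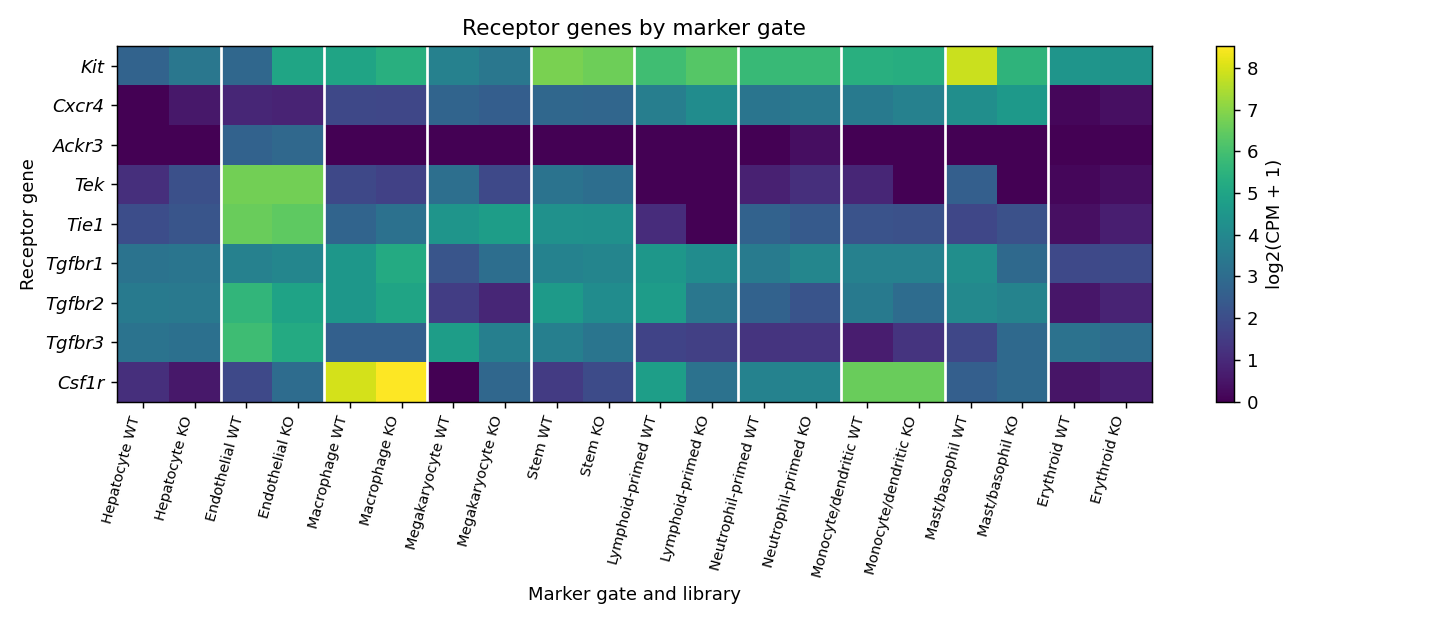
Level of 9 receptor genes, as log2(CPM + 1) in colour, by marker gate and library. Tek and Tie1 are brightest in the endothelial gate, Csf1r in the macrophage gate and Kit in the stem and WT mast/basophil gates.

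The receptors of these ligands sat in other gates than the ligands in some cases and in the same gate in others. Kit, the Kitl receptor and one of the sorted surface proteins, was at 110 and 98.1 CPM in the stem gate against 5.51 and 9.33 CPM in the Kitl-rich hepatocyte gate. Cxcr4 was low throughout, at 6.19 and 6.04 CPM in the stem gate, 17.6 and 23.1 CPM in the mast/basophil gate (7 UMIs each) and 0 and 1 UMI in the hepatocyte gate. Ackr3, a scavenger of Cxcl12, had 6 and 8 UMIs in the endothelial gate and at most 1 elsewhere.

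Tek, the Angpt1 receptor, was at 104 CPM in the endothelial gate of both libraries, with 78.3% and 77.9% of cells positive, against 8.39 and 7.55 CPM in the Angpt1-rich stem gate. Its relative Tie1, a check marker of the endothelial gate, was at 93.8 and 84.5 CPM there and 18.7 and 18.3 CPM in the stem gate. Tgfbr2, the receptor that binds Tgfb1, was highest in the WT endothelial gate (48.2 CPM) and alike in the KO endothelial (30.0 CPM) and macrophage (30.2 CPM) gates. It was lowest among the 5 main gates in megakaryocytes (1.90 and 0.886 CPM, 2 UMIs each), where Tgfb1 itself peaked. Tgfbr1 was highest in the macrophage gate (21.8 and 36.2 CPM) and Tgfbr3, a co-receptor, in the endothelial gate (58 and 36.3 CPM). Csf1r was at 253 and 368 CPM in the macrophage gate and 95 and 95.1 CPM in the monocyte/dendritic gate.

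Of the receptors with at least 20 UMIs, the intervals of 2 of 8 lay below 0 in the stem gate (Kit at -0.17 and Tgfbr2 at -0.54), where 16.7% of all genes left out 0, and 2 of 6 lay above 0 in the macrophage gate (Csf1r at 0.54 and Tgfbr1 at 0.73), where 17.6% did. In the endothelial gate Kit was 31.6 CPM in KO against 6.25 CPM in WT (log2 2.34, 1.16 to 3.74, and 3.34 without doublet calls), and Tgfbr2 (-0.68) and Tgfbr3 (-0.68) were lower in KO, in a gate where 10.4% of all genes left out 0. In the megakaryocyte gate Tgfbr3 was lower in KO by -1.10 (-1.93 to -0.28), a difference that went to 0.45 with doubled thresholds. None of 4 receptors left out 0 in the hepatocyte gate. Macrophage markers in the macrophage gate stood at 42.2 (WT) and 54.5 (KO) per 10000 UMIs. Their part in the Csf1r and Tgfbr1 differences was not tested. In the mast/basophil gate Kit, a check marker there, was 229 CPM in WT against 46.2 CPM in KO, with the marker difference given above for Angpt1. Lymphoid-primed Tgfbr2 (-1.41, 22 and 9 UMIs) and Csf1r (-1.65, 23 and 8 UMIs) were also past 2-fold with intervals below 0. Erythroid Tie1 (1.29, 10 and 24 UMIs) was past 2-fold with an interval above 0. In the erythroid gate 22% of all genes left out 0, and the lymphoid-primed share was not counted.

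Genes that process, tether or release the ligands were read in the same gates. Thbs1 (thrombospondin, an activator of latent TGF-β) and Ltbp1 (a latent TGF-β binding protein) were the highest of this list of 12 in the megakaryocyte gate, at 293 and 262 CPM and at 78.9 and 42.1 CPM, and Nrros, which tethers latent TGF-β on myeloid cells, followed at 45.6 and 61.6 CPM. Nrros also led in the macrophage (144 and 155 CPM) and stem (80.9 and 74.7 CPM) gates. In the endothelial gate Dpp4, a protease that clips Cxcl12, was at 70.5 and 52.9 CPM, Nrros at 65.2 and 65.6 CPM and Lrrc32, another TGF-β tether, at 50.9 and 30.0 CPM. In the hepatocyte gate Adam17 (22.6 and 16.3 CPM), Furin (15.9 and 18.7 CPM) and Nrros (12.2 and 13.5 CPM) led, and Adam17 in the macrophage gate was at 37.4 and 67.3 CPM, with Itgav at 18.2 and 25.1 CPM. In the stem gate Adam17 was at 18.7 and 21.1 CPM and Dpp4 at 6.33 and 5.47 CPM.

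Between genotypes, intervals of this list left out 0 for 0 of 5 genes with at least 20 UMIs in the hepatocyte gate, 1 above and 1 below of 6 in the endothelial gate, 1 above of 6 in the macrophage gate (Adam17 at 0.85), 1 below of 5 in the megakaryocyte gate (Ltbp1 at -0.91) and 1 below of 8 in the stem gate. Of all genes, 10.3%, 10.4%, 17.6%, 12.4% and 16.7% left out 0 in these gates in the same order. The part of the macrophage marker difference, given with the receptors, in the Adam17 value was not tested. Past 2-fold with such an interval were 3 genes, where 3.83% of all genes in the endothelial gate and 2.82% in the stem gate were past 2-fold. Thbs1 was higher in KO in the endothelial gate by 2.49 (6 against 38 UMIs), a value that went to -0.56 without doublet calls. In ungated cells it was higher in KO by 1.25, where 2.17% of genes were past 2-fold. Megakaryocyte markers in ungated cells stood at 0.590 (WT) and 1.13 (KO) per 10000 UMIs, and their part in the Thbs1 difference was not tested. Lrrc32 was lower in KO in the stem gate by -1.63 (17 against 4 UMIs), and Furin was higher in KO in the monocyte/dendritic gate by 1.06 (16 against 21 UMIs), where 2.89% of 9307 genes were past 2-fold.

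Of 21 other niche ligands, Vegfa, the main endothelial growth factor, led in the hepatocyte gate at 22.0 and 23.8 CPM, beside Ccl25 (5.51 and 8.40 CPM) and Pdgfa (6.73 and 4.20 CPM). Igf1, a growth factor, led in the macrophage gate (157 and 245 CPM), where Gas6, a ligand of TAM receptors, was at 61.8 and 85.2 CPM and Il15 at 8.83 and 9.37 CPM. It also led in the endothelial gate (27.7 and 23.7 CPM, beside Gas6 and Ccl25) and in the stem gate (30.3 and 22.6 CPM, beside Il15 and Ccl25). Pdgfb led in the megakaryocyte gate (44.7 and 44.8 CPM), beside Vegfa and Flt3l. In the macrophage gate 2 of 5 of these ligands with at least 20 UMIs had intervals above 0, Igf1 (0.64) among them. In the stem gate 2 of 9 lay below 0, Igf1 (-0.42) among them. Of all genes, 17.6% and 16.7% in these gates had an interval that left out 0. The part of the macrophage marker difference, given with the receptors, in the macrophage values was not tested.

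Past 2-fold among them, with intervals that left out 0, were Ptn in the stem gate and Gas6 in the endothelial and monocyte/dendritic gates. This was 1 of 9 of these ligands with at least 20 UMIs in the stem gate and 1 of 3 in the endothelial gate. Of all genes, 2.82% in the stem gate and 3.83% in the endothelial gate were past 2-fold. Ptn had 21 WT UMIs and 1 KO UMI. Endothelial Gas6 was at -1.08 (30 and 16 UMIs), but -0.96 without doublet calls and -0.69 as a mean over cells. Monocyte/dendritic Gas6 had 24 WT and 2 KO UMIs, in a gate where 2.89% of 9307 genes were past 2-fold. Endothelial markers in that gate stood at 0.456 (WT) and 0.0142 (KO) per 10000 UMIs, and macrophage markers were also lower in KO. The part of these markers in the Gas6 difference was not tested. Ptn (pleiotrophin) is a secreted growth factor for stem cells, and its log2 ratio was -3.94 (-9.31 to -1.30). Across the alternatives that gave a value, the Ptn ratio ran from -3.95 to -2.48.

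By pattern over 10 gates and both libraries, as Pearson's r of log2(CPM + 1) over 20 points among 11522 genes, the nearest genes to Thpo were C8b (0.999), Afm, Pnliprp1, Slc2a2 and Cyp2d26, and to Cxcl12 were Aass (0.995), Ftcd, Hoga1, F2 and Foxa3. Kitl was nearest to Fam114a1 (0.969), Spats2l, Abat, Cyb5a and Camk2n1. Angpt1 was nearest to Rab37 (0.911), Uba7, Prkag2, Dapp1 and Stim1, Tgfb1 to 0610010K14Rik (0.951), Ssbp4, Tln1, Tbcb and Camta1, and Csf1 to Nectin1 (0.842), Klhl22, Dnajc18, Syne4 and Maob. The points of a gate share cell type and those of a library share depth, so these values describe likeness only.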

How the data were processed

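Per the labels and the methods of the study, the deposited counts are UMI counts per gene and barcode from 10x 3′ v3 libraries, which the authors made with Cell Ranger 6.0.0 on mm10, and which are not normalized. The annotation release was not given in the sources used here. The liver was dissociated without enzymes before lineage depletion and sorting. The members and the lists of receptors, other ligands and processing genes were chosen with earlier results of these data known. Barcodes under 1000 detected genes or with over 20% of UMIs from mitochondrial genes were removed (382 WT, 511 KO). For each marker list a cell had to pass a minimum number of detected markers and a minimum share of its UMIs. Cells that passed several niche gates were kept apart. Scrublet (scanpy 1.11.5) called 135 WT and 256 KO cells doublets (3.90% and 5.80%), which were kept and left out in an alternative.

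Levels in a gate are summed UMIs with exact Poisson intervals, shares carry exact Clopper-Pearson intervals, and log2 ratios of KO to WT, computed at 20 or more UMIs over both libraries, carry exact conditional intervals, all at 95%. A fold against 0 UMIs used a floor of 3 UMIs per gate and library. The interval code was tested on simulated data. Alternatives were all barcodes, no doublet calls, halved and doubled gate thresholds, gates on cells thinned to 8500 UMIs, Seurat 5.3.0 clusters (R 4.3.3), Xist-positive cells, other scalings and other UMI minimums. Some receptors and ligands are not reported here. The genes named are all members and the other receptors, of the other lists those past 2-fold with an interval that left out 0 and the 3 highest in each of 5 gates, and per member the 5 of most similar pattern. Total UMIs were 109122324 in the WT and 100029143 in the KO library. Python 3.11.15, numpy 2.4.6, scipy 1.17.1 and pandas 2.3.3 were used.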

Additional observations from a re-analysis of the deposited data

How the results depend on the processing

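No paired analysis was possible because WT and KO were a single library each. Among gates with 10 or more cells, the hepatocyte gate led for Kitl, Cxcl12 and Thpo, and the megakaryocyte gate for Tgfb1. This held in all 7 alternatives that redefine cells or classes. Of the log2 ratios, 334 of the recomputed values lay within the interval of the reported ratio, 13 lay outside it, and 2 changed the sign of a ratio whose interval left out 0. Some ratios whose interval included 0 also changed sign, hepatocyte Kitl, Thpo and Tgfb1 and stem Tgfb1 among them. Unless said, the cause was not tested.

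Thinning cells to 8500 UMIs gave positive shares (WT, KO) in the hepatocyte gate of 32.1% and 38.3% for Kitl, 35.7% and 30% for Cxcl12, 7.14% and 5% for Thpo and 3.57% and 13.3% for Csf1, and of 61.6% and 59.1% for stem Angpt1, as fewer UMIs per cell must. With all barcodes, WT Kitl and Cxcl12 shares were both 60.5%, and WT Tgfb1 in megakaryocytes was 100% with Xist-positive cells or thinned gates.

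Without doublet calls, hepatocyte Kitl in KO was 78.1 CPM, Angpt1 in KO stem cells 126 CPM, hepatocyte Tgfb1 had a log2 ratio of -0.38 and endothelial Thbs1 of -0.56. The hepatocyte gate then held 100% of KO Thpo UMIs, and megakaryocytes 3.63% (WT) and 9.52% (KO) of Tgfb1. Clusters gave log2 ratios of -0.40 for hepatocyte Tgfb1 and 0.10 for erythroid Angpt1, 4.66% and 11.6% of Tgfb1 UMIs in megakaryocytes and 95.7% of WT Thpo in hepatocytes, but no stem, mast/basophil or ungated values.

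With doubled thresholds stem Angpt1 was 140 and 133 CPM and held 20.8% and 15.1% of its UMIs, the mast/basophil gate held 5.21% of WT Csf1, and megakaryocytes 2.50% of WT Tgfb1. Log2 ratios were then -3.66 (Angpt1) and 1.07 (Csf1) in mast/basophil cells, and 0.025 (Angpt1) and 0.45 (Tgfbr3) in megakaryocytes. With halved thresholds WT stem Angpt1 was 114 CPM, its shares 35.1% and 26.5%, mast/basophil Angpt1 had a log2 ratio of -0.52, and KO megakaryocytes held 9.28% of Tgfb1. Gates on thinned cells gave 119 CPM of KO stem Angpt1 with 17.1% and 13.4% of its UMIs, 70.1 CPM of KO mast/basophil Csf1, 572 and 600.1 CPM of megakaryocyte Tgfb1 with 2.47% and 6.31% of its UMIs, and -0.050 for ungated Tgfb1. In Xist-positive cells the KO stem gate held 22.6% of Angpt1.

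Counts of all genes past 2-fold were 321, 379, 373, 360 and 315 in the endothelial, hepatocyte, macrophage, megakaryocyte and stem gates at 20 UMIs, against 680, 746, 733, 770 and 645 at 10 UMIs and 52, 64, 117, 100 and 115 at 50 UMIs, since low counts scatter more widely. Depth limits Thpo and Csf1 most, at 53 and 204 UMIs in all. The hepatocyte gate rests on 30 WT cells from 2 pooled embryos.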

Other observations

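Angpt1 and Tgfb1 were found together in most stem-gated cells, 277 of 402 in WT and 206 of 352 in KO, and in 19 of 21 and 42 of 49 megakaryocyte-gated cells. In cells that passed several niche gates at once, Cxcl12 had 17 UMIs in 4 of 6 WT cells and 15 UMIs in 7 of 15 KO cells, and Tgfb1 had 98 and 172 UMIs.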
